A study of Canis lupus familiaris with 4 samples.

Results

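The comparison of the E22A transfectant with its MDCK-CMV control rests on 2 of the 4 arrays of the series, those titled MDCK_EE2A_CY5 (array 1) and MDCK_E22A_CY3 (array 2). They were taken by their titles. The title of array 1 spells the transfectant EE2A, and its channel protocol names E22A cells. MDCK is an epithelial line from dog kidney. MDCK-E22A cells carry a transfected E22A construct, read here as isoform A of E2-2, the protein of the gene TCF4. MDCK-CMV cells are the control transfectant. E22A and control cells were grown in the same serum-containing medium and amplified RNA was labelled, per the labels. Clone or pool, and the promoter driving E2-2, are details not given in the sources used here. Each array carried E22A RNA in 1 dye and control RNA in the other on a spotted cDNA array, so the pair repeats 1 comparison technically and holds 1 biological sample of each kind. No test was therefore made, and every SD below is over 2 arrays of the same cells.

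E2-2 is a class I basic helix-loop-helix factor, or E protein, which pairs with itself or with related factors and binds E-box DNA. Id proteins pair with E proteins and keep them off DNA. Several factors that bind E-boxes, among them SNAI1, ZEB1 and E47 (a product of TCF3), repress CDH1, the gene of E-cadherin, which holds epithelial cells together at adherens junctions. Loss of E-cadherin with gain of fibronectin and other mesenchymal products is the usual mark of an epithelial-mesenchymal transition, and MDCK cells are a common model of it.

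The values are ratios of the dyes on a log scale, taken as log2 by convention since no header or label gives the base. Every fold named here rests on that choice. Array 1 held a value for 23006 spots and array 2 for 22581, of 27648. Duplicate spots of a clone differed by a median of 0.02 and 0.03. Of 13824 clones, 10725 had a value on both E22A arrays, 1017 on array 1 only, 692 on array 2 only and 1390 on neither. Averaging clones with 1 gene symbol by gene gave 8967 features, of which 5037 had a symbol and 3930 were clones with none or several. Signal over background and levels of RNA are not in these values, so neither the epithelial identity of the cells nor the level of any gene could be checked.

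The labels give opposite accounts of the dyes. By the titles, E22A was in Cy5 on array 1 and in Cy3 on array 2, and the series' design text also describes reciprocal labelling. By the channel labels, the control was in Cy5 on both arrays, and E22A in Cy3 on array 1. For the Cy3 channel of array 2 they name no cells of its own, and E22A there was taken from the title. As deposited, the arrays ran the same way: across the 8967 features they correlated at r = 0.38, genes not being independent replicates. With array 2 turned, as the titles ask, r was -0.38. Arrays of the same cells that run against each other at r under -0.3 leave the direction of a change unsettled, and that holds for E22A. The other transfectant, E22B, whose titles and channel labels give the same reciprocal dyes, had r = -0.40 between its arrays as deposited over the 8657 of these features that it measured. Here the deposited signs are kept. Negative values are on the side of CDH1 and positive values on the side of FN1, the fibronectin gene. In the channel-label reading a feature's value is the mean of both arrays as deposited, and in the title reading it is the mean of array 1 and array 2 turned. With the other dye as numerator every value keeps its size and takes the opposite sign. If Cy5 is the numerator, the channel labels place CDH1 higher in E22A. If Cy3 is, they place it lower.

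**Figure D1:**
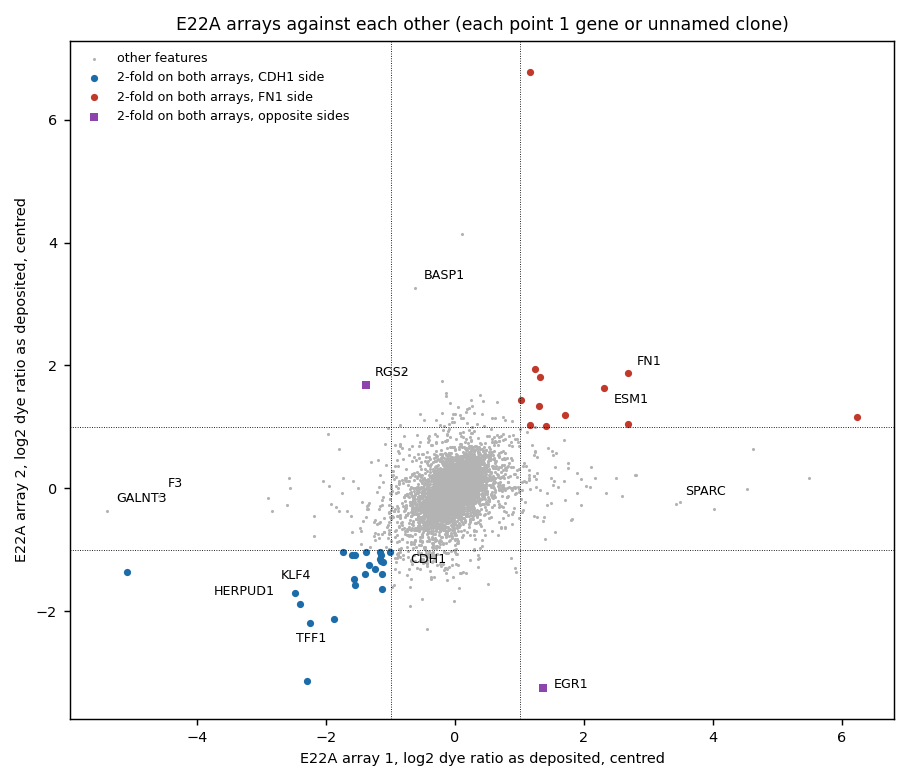
Log2 dye ratio on E22A array 1 (horizontal) against E22A array 2 (vertical), as deposited and centred, with 1 point for each of 8967 features and dotted lines at 2-fold. The 35 features that passed with the same sign on both arrays lie in the lower left (23) and upper right (12) corners, and EGR1 and RGS2 (squares) lie in the others.

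In the channel-label reading, which keeps the deposited signs, 35 of 8967 features (0.39%) reached 2-fold with both E22A arrays on 1 side. Of these, 23 (0.256%) lay on the CDH1 side and 12 (0.134%) on the FN1 side. A single gene symbol was given for 20 of them, 14 on the CDH1 side and 6 on the other. The title reading gave 2 features (0.0223%). Same-side features outnumbered the others at lower sizes too, as the plot of counts by size shows. At 1.5-fold 176 features (1.96%) were on the same side as deposited and 28 (0.312%) on opposite sides. Of the 176, 123 (1.37%) were on the CDH1 side and 53 (0.591%) on the FN1 side. At any size, 32.8% of features were negative on both arrays, 34.8% positive on both and 32.4% split. In the channel-label reading E22A carries the same dye on both arrays, so any dye bias of a gene has the same sign on each, and the SDs of that reading leave it out.

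**Figure D2:**
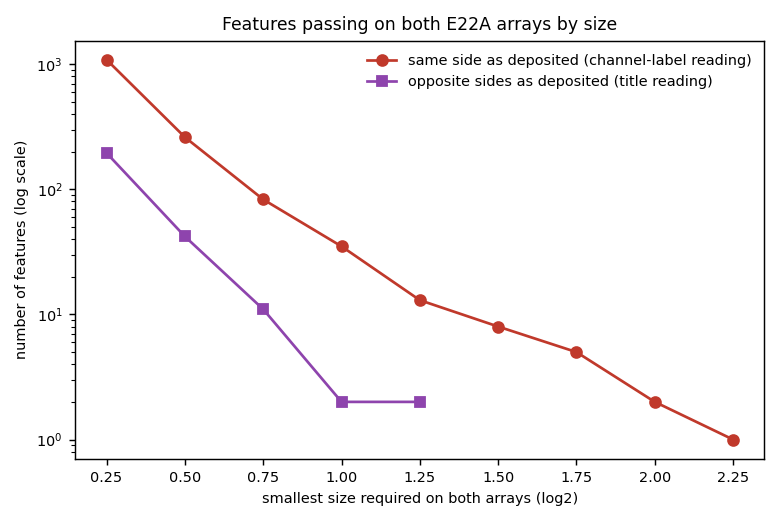
Number of features (vertical, log scale) whose size on both E22A arrays reached the value on the horizontal axis (log2), on the same side as deposited (circles) or on opposite sides (squares). At a log2 size of 0.5 the counts were 261 and 42, at 1 they were 35 and 2, and from 1.5 on no feature was on opposite sides.

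The transfected gene itself gave no large ratio. TCF4 stood at 0.27 on array 1 and 0.36 on array 2, a mean of 0.32 ± 0.07 (SD, n = 2 arrays) by the channel labels, while the titles give -0.05 ± 0.45. Its 2 clones stood at 0.57 and 0.34, and at -0.03 and 0.39, on arrays 1 and 2. How much of the transfected cDNA they match is unknown here, so TCF4 checks neither the label nor the direction. Among the other E proteins TCF3 stood at 0.09 and -0.003, and TCF12, the gene of HEB, at -0.22 and -0.29. Of the Id genes, ID3 was the farthest from 0, at 0.58 and 0.76 (0.67 ± 0.13 in the channel-label reading), on the FN1 side of both arrays. ID1 (0.29 and 0.02), ID2 (0.57 and 0.15) and ID4 (0.38 and 0.01) lay on the same side but near 0 on array 2. The ID4 clones averaged stood at 0.18, -0.15 and -0.01 on array 2, so its side there rests on 1 clone. On array 1 the ID2 clones averaged stood at 0.23, 0.24 and 1.24. In the title reading all 4 were within 0.21 of 0. The list of bHLH and Id genes had 15 of 25 members measured, 3 negative on both arrays, 6 positive on both and 6 split. By side, 32.8%, 34.8% and 32.4% of all features stood so. No member of the list was at 1.5-fold with 1 sign.

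Known repressors of CDH1 were thinly covered. ZEB1 stood at 0.30 and -0.22, so its sign depended on the array. KLF8, a zinc finger repressor of CDH1, was at -1.19 and -0.74, on the CDH1 side of both arrays (-0.97 ± 0.32 in the channel-label reading). SNAI1 (-0.14) and TWIST1 (0.28) had a value on array 1 only. VIM and SNAI2 lacked a value on both, and no clone was annotated to ZEB2. SOX9, another factor of the list, stood at -0.43 and -1.22. In all, 5 of the 16 EMT factors listed were measured on both arrays.

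CDH1 itself stood at -0.90 and -1.13, just under and over 2-fold, a mean of -1.01 ± 0.16 by the channel labels, while the titles give 0.11 ± 1.43. A further clone of CDH1 had a value on array 1 only, at -3.36, and was not averaged in. With CDH1 lay DSP, desmoplakin, which ties desmosomes to keratin filaments, at -1.17 and -1.15 (-1.16 ± 0.02). These values were nearly equal on both arrays. CTNNB1, beta-catenin, the partner of the E-cadherin tail, lay on the FN1 side at 0.41 and 1.22. Its 2 clones disagreed, 1 at 0.57 and 2.46 and the other at 0.26 and -0.03. Of 21 members of the junction list measured, 8 were negative on both arrays, 3 positive on both and 10 split. By side, the shares of all features were 32.8%, 34.8% and 32.4%. The list's median was -0.28 on array 1 and -0.08 on array 2. For the mean of both arrays it was -0.01, beside 0.01 for all features. At 1.5-fold there were 2 members on the CDH1 side, CDH1 and DSP, and 0 on the other. The shares of all features were 1.37% and 0.591%. AFDN (-0.27 and -0.39) and NECTIN1 (-0.28 and -0.38), an actin linker and an adhesion receptor of adherens junctions, lay on the CDH1 side at smaller size. EPCAM, an epithelial adhesion molecule, stood at -2.57 on array 1 and 0.17 on array 2. The claudins CLDN1 (-0.55 and 0.75) and CLDN4 (-0.43 and 0.59), strands of tight junctions, took opposite sides on the arrays.

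Genes of epithelial differentiation gave some of the largest ratios found on both arrays. TFF1, a secreted trefoil peptide of mucous epithelia, stood at -2.25 and -2.20, a mean of -2.22 ± 0.04 and a 4.67-fold ratio in the channel-label reading. KLF4, a zinc finger factor of epithelial differentiation and growth arrest, was at -2.48 and -1.70 (-2.09 ± 0.55). KRT14, a basal keratin, stood at -1.60 and -1.09, and DPP4, a cell surface peptidase abundant in kidney tubules, at -1.74 and -1.03. All 4 lay on the CDH1 side of both arrays at 2-fold or more, and they are the only members of their list of 18 measured that did so, beside 0.256% of all features. In the whole list 8 were negative on both arrays, 3 positive on both and 7 split, beside 32.8%, 34.8% and 32.4% of all features. Its median was -0.06 although its lower quartile was -1.16. Like all lists used here, this list was chosen with earlier results of these data known, so its counts are a description. The simple epithelial keratins KRT7 (0.99 and -0.48) and KRT8 (0.44 and -0.25) took opposite sides. SPINT2, an inhibitor of membrane serine proteases, stood at -2.18 but only -0.45 on array 2, and SPINT1 at -0.34 and -1.04. CDH16, the kidney cadherin, was at -0.02 and 0.004. KLF9, a relative of KLF4 that responds to steroid hormones, also met the 2-fold rule at -1.39 and -1.03.

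**Figure D3:**
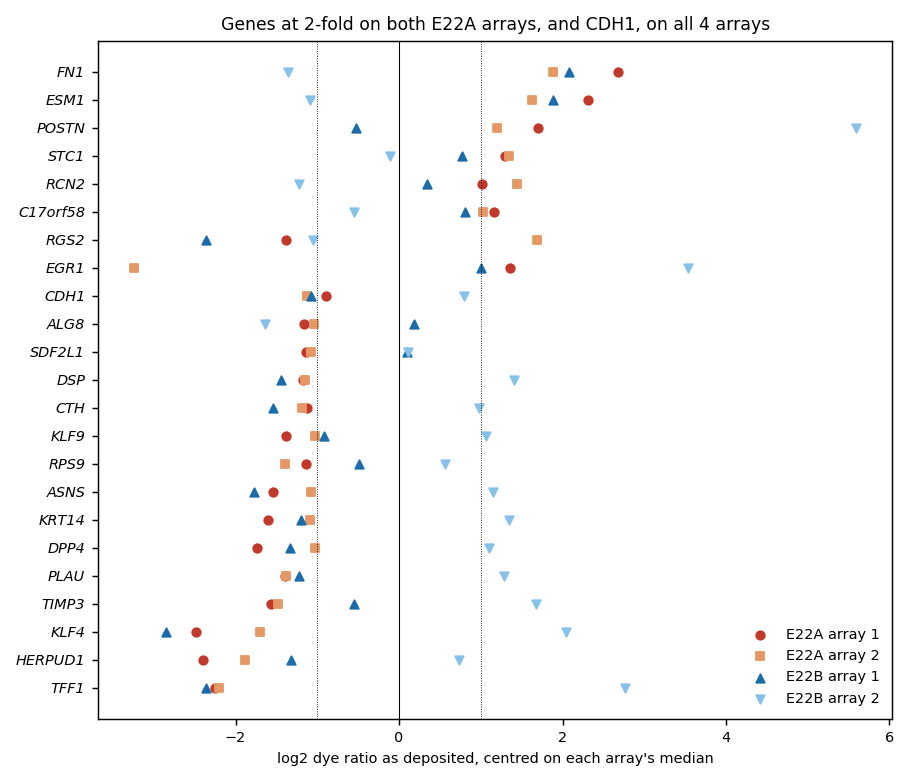
Log2 dye ratio as deposited (horizontal) of the 22 genes with a symbol at 2-fold on both E22A arrays, and of CDH1, with 1 point per array for E22A (circle and square) and E22B (triangles), and dotted lines at 2-fold. Except for EGR1 and RGS2 the E22A points lie on 1 side of 0, while the E22B points of most genes lie on both sides.

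On the opposite side, FN1 had the largest mean among genes with a symbol that reached 2-fold on both arrays, at 2.68 and 1.89 (2.28 ± 0.56, 4.87-fold, by the channel labels, and in the title reading 0.40 ± 3.23). ESM1, a proteoglycan secreted mainly by endothelium, stood at 2.31 and 1.63. POSTN, periostin, a matrix protein of fibroblasts, was at 1.70 and 1.20, and STC1, a secreted hormone induced by low oxygen, at 1.29 and 1.34. RCN2, a calcium-binding protein of the endoplasmic reticulum, stood at 1.02 and 1.44, and C17orf58 at 1.16 and 1.03. FN1, ESM1, POSTN and STC1 encode secreted proteins, as do TFF1, PLAU and TIMP3 at 2-fold on the CDH1 side. The share of secreted products among all features was not counted. The list of mesenchymal and contractile genes had 22 members measured, of which 6 were negative on both arrays, 9 positive on both and 7 split. By side, 32.8%, 34.8% and 32.4% of all features stood so. At 1.5-fold, FN1 and POSTN were on the FN1 side of both arrays and 0 members were on the other side. The shares of all features were 0.591% and 1.37%. VCAN, a large matrix proteoglycan, came near at 1.57 and 0.57. MYL9 (-0.34 and -0.70), a myosin light chain, and FAP (-0.54 and -0.30), a fibroblast surface protease, lay on the CDH1 side. CDH2, N-cadherin, had no common side (0.41 and -0.94).

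Several mesenchymal genes stood far from 0 on only array 1 of the E22A arrays. SPARC, a matrix glycoprotein, was at 3.43 and -0.25, TMSB4X, which binds actin monomers, at 2.81 and 0.22, S100A4 at 1.94 and -0.26, and LGALS1, galectin-1, at 1.89 and 0.25. Their place on the FN1 side therefore rests on array 1. On the E22B arrays, as deposited, SPARC stood at 3.54 and -0.11 and TMSB4X at 2.65 and -1.36. S100A4 stood there at 1.72 and 0.53 and LGALS1 at 2.53 and 0.12. Collagens, laminins and other matrix genes had 17 members measured, a median of 0.004 and 0 at 1.5-fold on both arrays. COL1A2, a chain of type I collagen, was the nearest at 0.52 and 0.67. The integrin list (17 measured) likewise had 0, with ITGB2 at -0.43 and -0.46 and ITGB4 at -0.44 and -0.40.

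Among extracellular proteases and their inhibitors, 2 of 19 measured members reached 2-fold on both arrays, both on the CDH1 side, where 0.256% of all features did. PLAU, the urokinase plasminogen activator, stood at -1.40 and -1.39, a mean of -1.39 ± 0.01. TIMP3, an inhibitor of metalloproteinases, stood at -1.57 and -1.48, and its 3 clones all lay on the CDH1 side, between -2.59 and -0.62. The remaining 17 were under 1.5-fold on 1 or both arrays, with TIMP2 at 0.71 and 0.19, and the list's median was 0.004.

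In the channel-label reading the list that stood farthest from 0 was that of endoplasmic reticulum stress and the amino acid response, which links protein folding and amino acid supply through ATF4. Of 18 measured members, 12 were negative on both arrays, 3 positive on both and 3 split, beside 32.8%, 34.8% and 32.4% of all features. Its median was -0.39, from -0.37 on array 1 and -0.53 on array 2, beside 0.01 for all features. In the title reading the median was -0.02. At 1.5-fold, 6 members lay on the CDH1 side of both arrays, where 1.37% of all features did. VLDLR (1.01 and 0.97), a lipoprotein receptor, lay on the other, where 0.591% did. HERPUD1, which takes part in degradation from the endoplasmic reticulum, stood at -2.40 and -1.89, a mean of -2.14 ± 0.36 and a 4.42-fold ratio. ASNS, asparagine synthetase, was at -1.55 and -1.08. CALR, calreticulin, a calcium-binding chaperone, stood at -0.97 and -1.60, and both of its clones were on the CDH1 side. ATF4 itself, the transcription factor of this response, was at -0.92 and -0.67, ATF3 at -0.64 and -0.87 and GARS1, glycyl-tRNA synthetase, at -0.60 and -0.64. XBP1, a factor of the unfolded protein response, stood at -0.45 and -1.02. HSPA5, the main chaperone of the endoplasmic reticulum, lay slightly on the other side, at 0.08 and 0.28. This list too was drawn up with some of these values known, so its counts are a description.

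CTH, SDF2L1 and ALG8, which are in no list used here, also reached 2-fold on the CDH1 side. CTH, which makes cysteine from cystathionine, stood at -1.12 and -1.19 (-1.16 ± 0.05). SDF2L1, a cochaperone of the endoplasmic reticulum, was at -1.14 and -1.08, but this mean hides clones of -2.12 and -2.19 in 1 case and -0.17 and 0.03 in the other. ALG8, which adds glucose to the sugar chain used for N-glycosylation, stood at -1.17 and -1.04.

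On the E22B arrays, of opposite dye, HERPUD1 stood as deposited at -1.32 and 0.73, ATF4 at -0.38 and -0.04 and ATF3 at -0.21 and 0.42, each smaller in size than on the E22A array of the same number. ASNS, at -1.77 and 1.15, was larger in size on each than on the E22A array of the same number. CALR was positive on both E22B arrays (0.29 and 0.91). SDF2L1 averaged 0.09 and 0.11, although its clone with the large E22A values had only 1 value in E22B, 0.47. The transfectants share the control RNA and have 1 sample each, so no test of this difference was made.

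Ribosomal protein genes were the list next farthest from 0. Of 24 measured members of 76, 13 were negative on both arrays, 5 positive on both and 6 split, with a median of -0.20, beside 32.8%, 34.8% and 32.4% of all features. At 1.5-fold 5 were on the CDH1 side, where 1.37% of all features were, and 0 on the other, where 0.591% were. RPS9 stood at -1.14 and -1.39, RPL18 at -0.90 and -1.06, RPS19 at -1.18 and -0.81, RPL8 at -1.25 and -0.73 and RPS14 at -0.77 and -0.69. All 3 clones of RPS19 and both of RPL18 were on the CDH1 side. Others in the list lay on the FN1 side, such as RPS24 (0.23 and 0.31) and RPL37 (0.26 and 0.15). These genes have many near-identical processed copies that a cDNA spot cannot tell apart. In E22B the same 5 stood between -0.50 and -0.03 on array 1 and between 0.21 and 0.90 on array 2.

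Growth control genes showed smaller ratios. FOS, an immediate early transcription factor, averaged -0.86 and -1.35 over 2 clones, of which 1 stood at -1.47 and -2.43 and the other at -0.26 and -0.27. CCN1 (-0.83 and -0.65), a matrix-bound growth regulator, and ATF3 were the other members of the immediate early list at 1.5-fold on the CDH1 side. On the other side were 0 of its 18 measured members. Of all features, 1.37% were on the CDH1 side at that size and 0.591% on the other. DUSP1, a phosphatase that switches off MAP kinases, was at -0.90 and -0.54. Of 20 measured cell cycle inhibitors and p53 targets, PLK2 (-1.06 and -0.62), a kinase, and BTG1 (-1.05 and -0.60), an antiproliferative factor, reached 1.5-fold, both on the CDH1 side. GADD45A stood at -1.42 and -0.53, while CDKN1B, the inhibitor p27, had -0.04 on array 1 and 1.15 on array 2. Cell cycle and replication genes, 42 measured, had a median of 0.002 and 0 at 1.5-fold on both arrays. Those nearest were E2F5 (-0.46 and -0.95) and the licensing factor CDC6 (-0.39 and -1.35).

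Of the growth factor and receptor list, 34 were measured. IGFBP5, a binding protein of insulin-like growth factors, stood at -0.90 and -0.88, a mean over 4 clones of which 1, at -2.18 and -2.82, was far from the rest. FGFR4, a receptor of fibroblast growth factors, stood at 0.97 and 0.75, from 1 clone at 1.99 and 1.46 and another at -0.05 and 0.04. VEGFA was at -1.18 and -0.34. In the TGF-beta and BMP list (21 measured) 4 were negative on both arrays, 9 positive on both and 8 split. SMAD7, an inhibitor of the pathway, stood at 0.54 and 0.58 and the ligand BMP4 at 0.49 and 0.85. No member of that list reached 1.5-fold with 1 sign on both arrays. The WNT list (20 measured) had 9 negative on both, 9 positive on both and 2 split, and NOTCH genes (9 measured) 4, 2 and 3. For all features these shares were 32.8%, 34.8% and 32.4%.

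**Figure D4:**
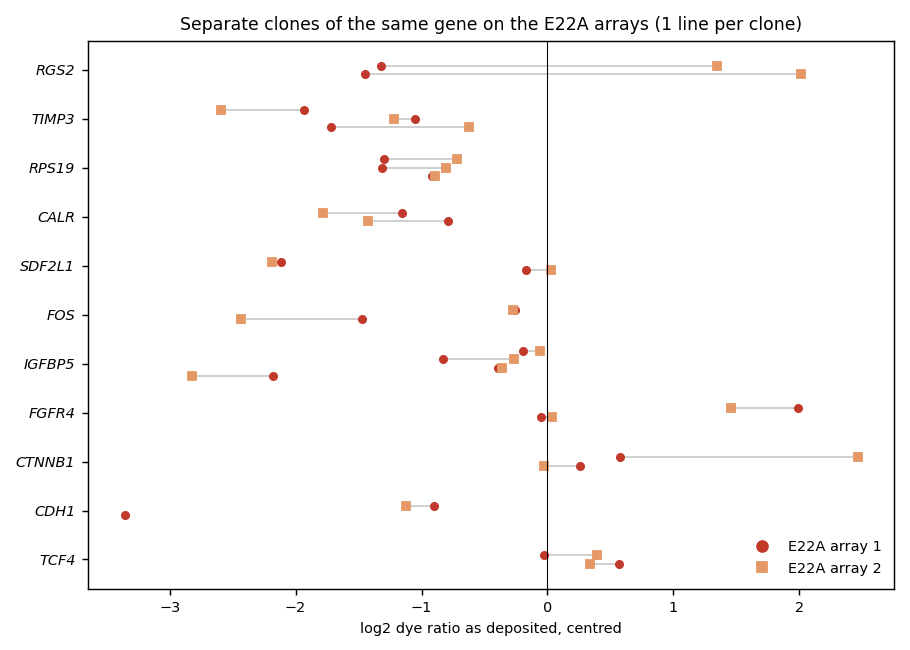
Log2 dye ratio as deposited (horizontal) of each separate clone of 11 genes on E22A array 1 (circle) and array 2 (square), joined by a line per clone. On each array the clones of TIMP3, RPS19, CALR and RGS2 lie on 1 side of 0, although those of TIMP3 run from -0.62 to -2.59 on array 2. FOS, SDF2L1, IGFBP5, FGFR4 and CTNNB1 each have a clone far from the others, and 1 CDH1 clone has no value on array 2.

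The clones of a gene can cover different parts of a transcript, and the array was annotated with human genes while the RNA was canine. Of 16 genes with several clones of which at least 1 was at 2-fold on both arrays, only SDF2L1 and TIMP3 met the rule as a gene.

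Interferon-induced genes (25 measured) had 14 members negative on both arrays, 7 positive and 4 split, beside 32.8%, 34.8% and 32.4% of all features. Their median was -0.12. IFIT3 (-0.99 and -0.86) and IFI44 (-0.82 and -0.82) were at 1.5-fold on the CDH1 side, where 1.37% of all features were. ISG15 (-0.16 and -0.16), BST2 (-0.14 and -0.16) and MX1 (0.04 and -0.09), usually induced with them, were close to 0. OASL (0.32 and 0.64) and IFI44L (0.17 and 0.41) lay on the FN1 side of both arrays. Glycolysis and hypoxia genes (19 measured) were divided 6 to 6. Besides STC1, PKM, a pyruvate kinase, lay on the FN1 side at 0.78 and 1.12. These 2 members reached 1.5-fold there, where 0.591% of all features did, and 0 on the other side. Heat shock proteins and chaperonins (22 measured) were nearer 0 on array 1 (median 0.02) than on array 2 (-0.33), with HSPA9 at -0.53 and -1.05 and 0 at 1.5-fold on both. Of 20 oxidative phosphorylation subunits NDUFB3 (0.75 and 0.79) alone reached 1.5-fold, on the FN1 side, beside 0.591% of all features. On the CDH1 side, beside 1.37%, CASP6 (-1.24 and -0.84), an executioner caspase, was the only one of 30 apoptosis genes. ACSL1 (-0.75 and -0.70), a fatty acid activating enzyme, was the only one of 10 lipid synthesis genes.

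**Figure D5:**
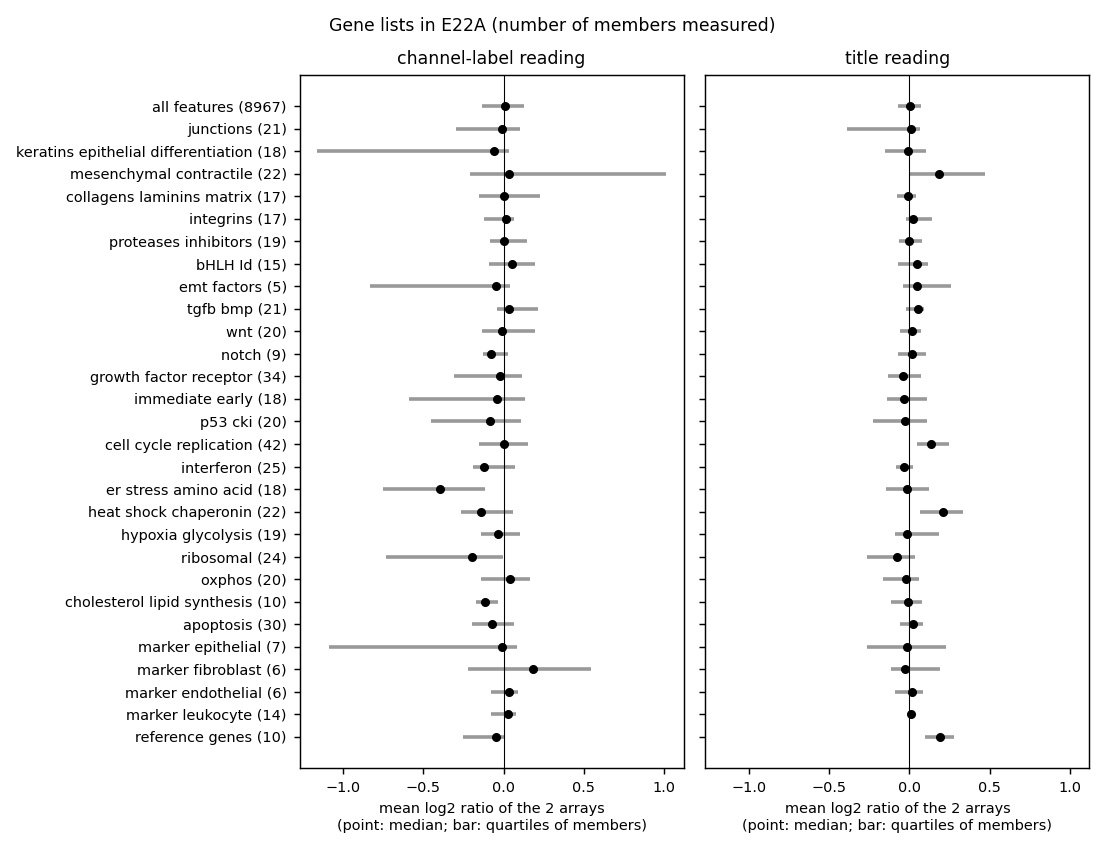
Median (point) and quartiles (bar) of the mean log2 ratio over the members of each gene list in E22A, in the channel-label reading (left) and the title reading (right), with the number of members measured in brackets. On the left the list of endoplasmic reticulum stress and amino acid genes is farthest from 0 at -0.39; on the right the heat shock list, the reference genes and the mesenchymal list stand at 0.21, 0.19 and 0.19.

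Markers of other cell types were spread over both sides. Of 6 fibroblast markers measured, 2 were negative on both arrays, 3 positive on both and 1 split, and of 6 endothelial markers 2, 1 and 3. For all features these shares were 32.8%, 34.8% and 32.4%. ESM1 was the only endothelial marker at 1.5-fold, with TIE1 at -0.17 and -0.12 and TEK at -0.06 and -0.17, and POSTN was the only fibroblast marker. Both lay on the FN1 side, where 0.591% of all features reached that size. Of 14 leukocyte markers none reached 1.5-fold, and 5 were negative and 7 positive on both. The levels behind these ratios are unknown, fewer cells of a type and less RNA per cell cannot be told apart, and the part of other cells in the results was not tested. Among 7 epithelial markers 2 (CDH1 and DSP) were negative on both arrays and 5 were split. Common reference genes were not all at 0: GUSB stood at -0.57 and -0.50, SDHA at -0.15 and -0.65, ACTB at 0.93 and 0.003, and GAPDH at 0.15 and -0.09.

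The title reading left little at size. EGR1, an immediate early transcription factor, stood at 1.36 and -3.24 as deposited, a title-reading mean of 2.30 ± 1.33. RGS2, a regulator of G protein signalling, stood at -1.39 and 1.68, a mean of -1.53 ± 0.21, and both of its clones took opposite sides on the arrays. On the E22B arrays, of opposite dye by all labels, EGR1 was positive on both (1.00 and 3.54) and RGS2 negative on both (-2.37 and -1.05) as deposited. In that reading the mesenchymal list had a median of 0.19, heat shock genes 0.21, cell cycle genes 0.13 and the reference genes 0.19, beside 0.002 for all features. By the channel labels these 4 medians were 0.04, -0.14, 0.002 and -0.05.

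Some of the largest ratios were on 1 array. Of 191 features at 2-fold on array 1, 146 had the same sign on array 2, but 102 were under 0.5 in size there, and of 189 at 2-fold on array 2, 150 had the same sign on array 1 and 99 were under 0.5. Of the 34 features at 4-fold on array 1, 23 were under 0.5 on array 2, and of the 8 at 4-fold on array 2, 2 were under 0.5 on array 1. GALNT3, which starts O-glycan chains, stood at -5.39 and -0.37, and F3, tissue factor, at -4.60 and -0.12. BASP1, a membrane protein of growing neurites, ran the other way, at -0.62 and 3.26. On the E22B arrays GALNT3 stood at -4.43 and -0.27 and F3 at -3.75 and -1.35 as deposited, again largest on array 1. BASP1 stood there at -0.67 and -2.67.

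For most of the genes at 2-fold on both E22A arrays, the E22B ratio took opposite signs on its arrays of opposite dye. KLF4 stood at -2.85 and 2.04 there, TFF1 at -2.36 and 2.77, DSP at -1.44 and 1.41, PLAU at -1.22 and 1.28 and FN1 at 2.08 and -1.36. CDH1, just under 2-fold on E22A array 1, stood at -1.08 and 0.79. The sum of the E22B arrays as deposited cancels what turns with the dye and keeps what does not. Over the 33 of the 35 features that E22B measured, the median size of its mean as deposited was 0.30, and the median size after turning array 2 was 1.26. Over all 8657 features with E22B values these were 0.08 and 0.15. These sizes leave out the sign. The turned E22B mean lay on the other side of 0 from the E22A mean for POSTN (-3.06 against 1.45) and ALG8 (0.91 against -1.10). Some clones with no single symbol did so too, at -2.96 against 3.97, -2.90 against 3.69 and -1.64 against 1.21. For the rest of the 33 the signs were the same. RNA of the same control lies on all of these arrays, so the values stand side by side with no test between them.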

How the data were processed

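The 4 arrays are 2-colour cDNA arrays, 2 per transfectant. The deposited values are log ratios of the dyes, taken as log2 by convention, already centred near 0 by the authors (deposited medians of the E22A arrays 0.003 and 0.002). The log base, numerator dye, image analysis and normalisation are details not given in the sources used here. Promoter and clone sequences were not used. The mean of duplicate spots was taken, arrays were centred on their medians, and clones with a value on both E22A arrays were averaged by gene where the platform annotation gave 1 symbol (8744 clones; 327 had several and 4753 none). Of the 5037 genes, 4592 symbols occur in the dog RefSeq gene table (UU_Cfam_GSD_1.0). A feature counted at 2-fold when its log2 size was at least 1 on the same side of both arrays. With 1 biological sample no test was made. Genes named are a fixed set of E-cadherin regulators, up to 12 per side by the smaller of the array sizes, all in the title reading, up to 4 per list, and the 6 with the largest difference between arrays. All other genes named, among them KLF9 and further members of the lists, were chosen after their values were seen. The members and the 28 lists were chosen with earlier results of these data known. Alternatives changed centring, scale, spots, clones, arrays and size. One gene list is not reported here. The calling step was tested on simulated data. Python 3.11.15, pandas 2.3.3 and numpy 2.4.6 were used.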

Additional observations from a re-analysis of the deposited data

Results flagged for a closer look

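ALG8 and POSTN lay on 1 side of both E22A arrays in the channel-label reading and on the other side of both E22B arrays once the E22B dyes were turned. ALG8 had an E22A mean of -1.10 ± 0.09 (SD, n = 2 arrays), while the E22B arrays stood at 0.18 and -1.63 as deposited, a turned mean of 0.91. POSTN had an E22A mean of 1.45 ± 0.35, while the E22B arrays stood at -0.52 and 5.59, a turned mean of -3.06. Both differences rest largely on E22B array 2, and they were not tested, since each transfectant is 1 sample and both share the control.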

How the results depend on the processing

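The count of 35 features at 2-fold by the channel labels became 29 with the arrays scaled alike, 33 with both duplicate spots or all 4 arrays required, 50 with 1 feature per clone, and 35 without centring and, as an alternative chosen after seeing the data, with each of 48 runs of consecutive table rows centred on its own median. It moved to 176 at 1.5-fold and 7 at 3-fold. The title count of 2 moved to 4 with the arrays scaled alike, to 28 at 1.5-fold and to 0 at 3-fold. Leaving out array 1 or array 2 leaves no second array to repeat a value, and the counts were then 189 to 191 in both readings. No gene at 2-fold changed sign under any alternative run. The rule asks for 1 sign at 2-fold on both arrays, so this was largely fixed in advance. Across named genes, 53 values moved by more than the SD of the arrays and 953 did not, and the cause was not tested. Across list medians 38 did and 186 did not. For a gene, leaving out 1 array always shifts the mean of 2 by less than their SD, so it could not count as moved. IFI44, with an SD of 0.0004, counted as moved without centring, at -0.822 against -0.824. The gene tally is therefore no measure of stability. SDF2L1 depended on 1 clone, at -0.07 with all 4 arrays required, and FOS stood at -1.95 there. No paired analysis was possible because both arrays of a transfectant hold the same RNA and the labels number no replicates. The number of arrays, 2, limits the precision, and signal over background is not in these values.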

Other observations

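Several of the largest E22A values belong to clones without a single gene symbol (none or several) in the annotation used. Of the 35 features at 2-fold on both arrays, 15 had no single symbol, 9 on the CDH1 side and 6 on the other. The clone farthest from 0 on the CDH1 side, by the smaller of its array sizes, stood at -2.30 and -3.13, and in E22B at -2.04 and 3.48 as deposited, another at -1.88 and -2.12, with -2.02 and 2.54. A further 2 clones on the FN1 side were very unequal, at 6.23 and 1.15, and at 1.16 and 6.78.

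Clones with a value on only 1 E22A array were at 2-fold in 28 of 1017 cases on array 1 (2.75%) and in 21 of 692 on array 2 (3.03%). The CDH1 clone at -3.36 on array 1 is among them. None of these clones enters a count above.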
